A study of Mus musculus with 10 samples.

Results

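The 10 genes described here are known regulators or markers of the pluripotent state in the mouse: Pou5f1, Nanog, Klf4, Esrrb, Prdm14, Zfp42, Dppa2, Dppa3, Dppa4 and Tdgf1. They were chosen by name, with earlier results of these data known. Every measured cytosine inside them or within 2000 bp of either end was taken. That gave 956 of the 2137824 positions in the deposited methylation table, spread over 9 of the 10 genes; Nanog had no measured position. For comparison, 17575 of 20665 autosomal protein-coding genes of the RefSeq gene table had at least 1 position by the same rule, the 9 included. The 956 positions belonged to 651 CpGs, of which 305 were measured on both strands, and the median difference between strands ran from 0.710 points in Klf4 to 7 points in Dppa2.

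The series comprises 5 arsenic and 5 control samples of mouse embryos, all aged embryonic day 7.5, the time of gastrulation. The labels used here give no dose, route or duration for arsenic, and no strain, sex or pooling for either group. DNA methylation was measured by reduced representation bisulfite sequencing (RRBS), in which a restriction digest selects CpG-rich fragments and bisulfite turns unmethylated cytosines into a base read as thymine. The table holds 10 sets of counts numbered 1 to 10, called columns here, and no column name ties a number to an arsenic or a control sample. No comparison of arsenic with control was therefore made, and levels are given for all 10 columns together with the lowest, median and highest column. Any difference between the groups lies inside that range. The coverage summed over all positions ran from 73509873 calls in column 3 to 127743904 in column 1, every position had at least 10 reads in each column, and the mean autosomal level ran from 40.1 to 42.7% by column.

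The pluripotent epiblast is held by a network of transcription factors around Pou5f1 and Nanog, with Klf4, Esrrb, Prdm14 and Zfp42 marking its naive, pre-implantation form. After implantation the naive genes are largely switched off, whereas Pou5f1 stays on in the epiblast for longer and is silenced as germ layers form. Methylation of CpGs at a gene start is generally found with a silent gene, most start regions rich in CpGs stay free of methylation, and the new methylation of the epiblast is set after implantation. Gene expression was not measured here. In bulk embryos an intermediate level can be a share of methylated cells, of methylated alleles or of methylated molecules, and these cannot be told apart.

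Most of these genes carried intermediate methylation at their ends. The level of a window is its methylated calls divided by all calls, in percent; an end window reaches 2000 bp to each side of a gene end, the body is the rest of the gene, and a window needed at least 3 positions. Of the 9 measured genes, 8 had end levels of 20 to 80% and 1, Klf4, was under 20%, whereas 39.1% of all genes lay at 20 to 80% and 60.0% lay under 20%. The median end level was 35.5% over the 9 genes, with column medians of 33.3 to 41.5%, and 13.1% over the 15636 genes with enough positions, with column medians of 12.4 to 14.2%. Where the side of the start was known, 4 of 5 start windows lay at 20 to 80% (23.6% of all genes) and 1 of 5 under 20% (75.9% of all genes). The median start level was 31.5% over these 5 genes and 4.53% over 11270 genes. These counts describe 10 chosen genes and carry no test.

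**Figure D1:**
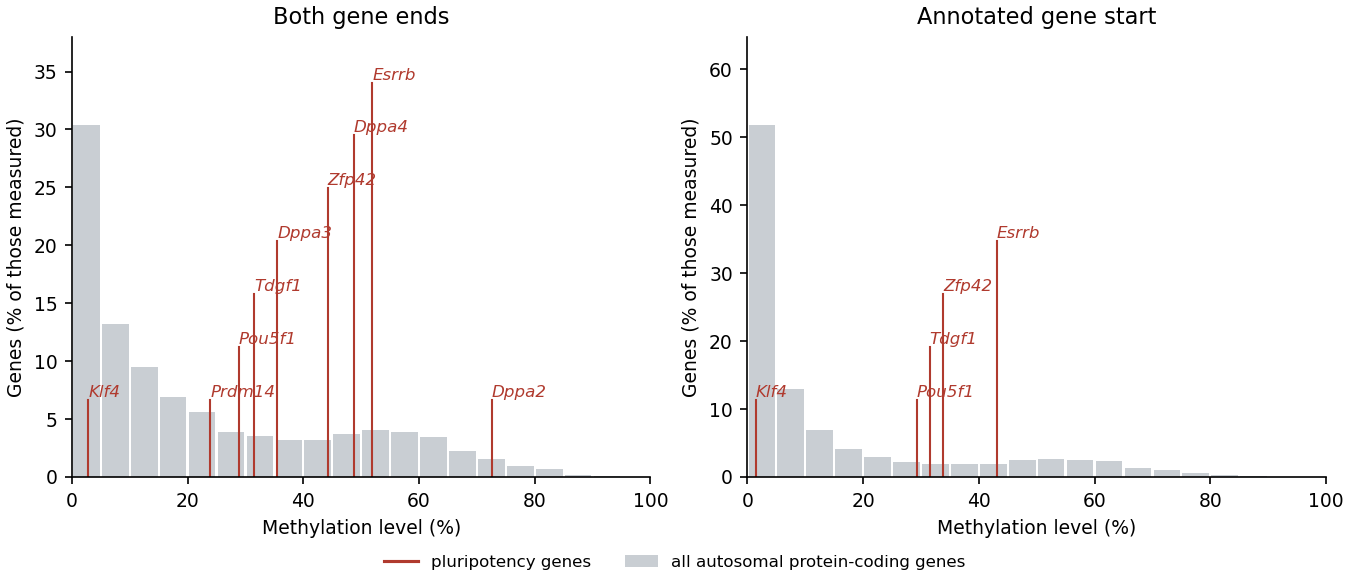
Grey bars give the share of all autosomal protein-coding genes by methylation level, in steps of the level in percent, for both gene ends (left) and for the annotated gene start (right), and red lines mark the pluripotency genes at their level over the 10 columns, their heights being set only for the labels. Klf4 sits in the tall bar near 0, and the other lines lie between 23.9 and 72.6% at the ends and between 29.3 and 43.1% at the start.

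The sequences before 4 of the starts show how these genes differ in CpG content. They are the 250 bases before the annotated start, from RefSeq on GRCm38.p6, the assembly mm10 corresponds to, written 5′ to 3′ on the strand of the gene with each CpG in capitals. Pou5f1 stands for the middle of the range, Klf4 for the CpG-rich end, Tdgf1 for the start with measured CpGs right before it, and Esrrb for a start inside the gene that was less methylated than the outer start. They lie at chr17:35505782-35506031 (plus strand) for Pou5f1, chr4:55532476-55532725 (minus strand) for Klf4, chr9:110946159-110946408 (minus strand) for Tdgf1 and chr12:86421394-86421643 (plus strand) for the inner start of Esrrb.
Pou5f1: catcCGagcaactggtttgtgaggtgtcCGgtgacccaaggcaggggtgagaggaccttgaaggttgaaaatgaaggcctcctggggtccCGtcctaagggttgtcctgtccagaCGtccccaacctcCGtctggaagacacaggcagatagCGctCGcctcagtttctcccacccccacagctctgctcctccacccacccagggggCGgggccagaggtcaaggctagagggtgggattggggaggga
Klf4: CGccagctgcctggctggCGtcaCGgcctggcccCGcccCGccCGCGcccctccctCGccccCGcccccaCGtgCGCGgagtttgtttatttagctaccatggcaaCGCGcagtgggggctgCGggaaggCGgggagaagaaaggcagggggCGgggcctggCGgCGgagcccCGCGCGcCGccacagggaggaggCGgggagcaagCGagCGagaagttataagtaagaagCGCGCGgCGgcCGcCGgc
Tdgf1: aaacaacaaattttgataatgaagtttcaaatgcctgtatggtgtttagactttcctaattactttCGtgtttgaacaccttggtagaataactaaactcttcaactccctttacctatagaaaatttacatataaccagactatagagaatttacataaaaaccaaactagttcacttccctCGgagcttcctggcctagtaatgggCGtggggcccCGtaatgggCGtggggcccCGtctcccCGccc
Esrrb inner start: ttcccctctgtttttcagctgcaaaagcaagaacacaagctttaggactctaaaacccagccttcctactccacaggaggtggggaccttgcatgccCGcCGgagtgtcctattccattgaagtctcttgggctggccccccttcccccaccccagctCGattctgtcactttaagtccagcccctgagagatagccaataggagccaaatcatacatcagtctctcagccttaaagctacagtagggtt

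Klf4 had 32 CpGs in these bases, Zfp42 had 9, Pou5f1 had 8, Tdgf1 had 7, and Esrrb had 6 at its outer and 3 at its inner start, against a median of 7 over 9841 genes with a sequence (quartiles 2.00 to 17.0). The 4 genes with 6 to 12 CpGs, Pou5f1, Tdgf1, Zfp42 and Esrrb, had start levels of 29.3 to 43.1%. Genes of the same CpG class had a median start level of 7.18% over 1477 genes, with an upper quartile of 23.1%, and 28.3% of them reached 20%. All 4 thus lay above that upper quartile. For Pou5f1, Zfp42 and the outer start of Esrrb, none of the CpGs counted here was measured. Class and level come from different bases there. Klf4 stood at 1.42% in the class with more than 20 CpGs, where the median was 1.88% over 1686 genes. None of its 32 CpGs printed here was measured, and its first measured position lay 180 bp inside the gene, so that sequence and level share no base. The letters CCGG, the site of the enzyme usual in RRBS and its own reverse complement, occurred once in the 250 bases of Pou5f1, of Klf4 and of the inner start of Esrrb and 2 times in those of its outer start, and were not in those of Tdgf1, Zfp42 or Nanog; they were in 49.8% of the 9841 sequences.

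Pou5f1 (also called Oct4), the POU-domain factor at the centre of the network, lies on chr17:35506032-35510777 on the plus strand. Its start window had a level of 29.3% over 12 positions and 3942 calls (95% Wilson interval 27.9 to 30.7%), and the columns had 24.2, 28.2 and 37.0% as lowest, median and highest. Such intervals cover counting error only and are too narrow, since calls of the same read are not independent. Between its end windows the body was lower, at 13.7% over 10 positions (columns 9.03, 13.8 and 22.9%), and the ends exceeded the body in 10 of 10 columns without overlap. Along the gene, 6 positions 44 to 145 bp after the start had 35.6%, 6 positions at 1874 to 1907 bp had 19.9%, 9 positions at 2018 to 2157 bp had 13%, and 4 positions at 3860 to 3980 bp had 27.6%. Among the measured runs, the least methylated one of Pou5f1 thus lay about in the middle of the gene and not just after its outer start. This run lay before an inner start of Pou5f1 that RefSeq lists 2775 bp from the outer one, at chr17:35508807. None of the 6 CpGs in the 250 bases before that inner start was measured. The outer start itself and the bases before it had no measured position. The far end rested on 5 positions with 26.9%, and its columns spread from 10 to 55.8%, the widest of the measured windows.

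None of the 8 CpGs in the Pou5f1 sequence printed above was measured, so its start level comes from the positions after the start. The long non-coding RNA gene Gm32362 ends 295 bp before the start of Pou5f1, and the window at the far end reaches Tcf19. The last measured position of that window was chr17:35510012, before Tcf19 begins at chr17:35512730. Nanog, the homeodomain factor that works with Pou5f1, lies on chr6:122707489-122714633 and had 0 positions in its windows and body, hence no level. The gene table also lists pseudogenes named after Pou5f1, Nanog, Zfp42, Dppa3 and Tdgf1, whose reads could be mistaken for those of the gene; this was not tested. The 17 Pou5f1 end positions averaged 28.7 reads per column, against a median of 37.6 over all positions.

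Klf4, a zinc-finger factor of the naive state and of reprogramming, had the lowest level of the 5 measured start windows, with no position at or before the start itself. It lies on chr4:55527137-55532475 on the minus strand. Its start window also reaches the long non-coding RNA gene Gm12506, from chr4:55532710, but held no measured position there. The start window had 1.42% over 124 positions and 56800 calls (interval 1.32 to 1.52%), with 0.886, 1.47 and 1.92% as the lowest, median and highest column. The far end had 62.2% over 6 positions (columns 51.9, 64.5 and 73.8%), so the start and far-end ranges did not overlap. In between, methylation stepped up with distance: 74 positions 180 to 1020 bp into the gene had 1.37%, 75 positions at 1636 to 2409 bp had 3.73%, 3 positions at 2512 to 2606 bp had 27.3%, and 5 positions at 4270 to 4358 bp had 60.3%. The body as a whole had 10.9% over 28 positions (columns 8.54, 11.1 and 13.6%), where 5.37% of 12439 gene bodies were under 20% and 82.9% were at 20 to 80%. Of the 6 bodies measured among the pluripotency genes, 2 were under 20%, those of Klf4 and Pou5f1, and 4 were at 20 to 80%.

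**Figure D2:**
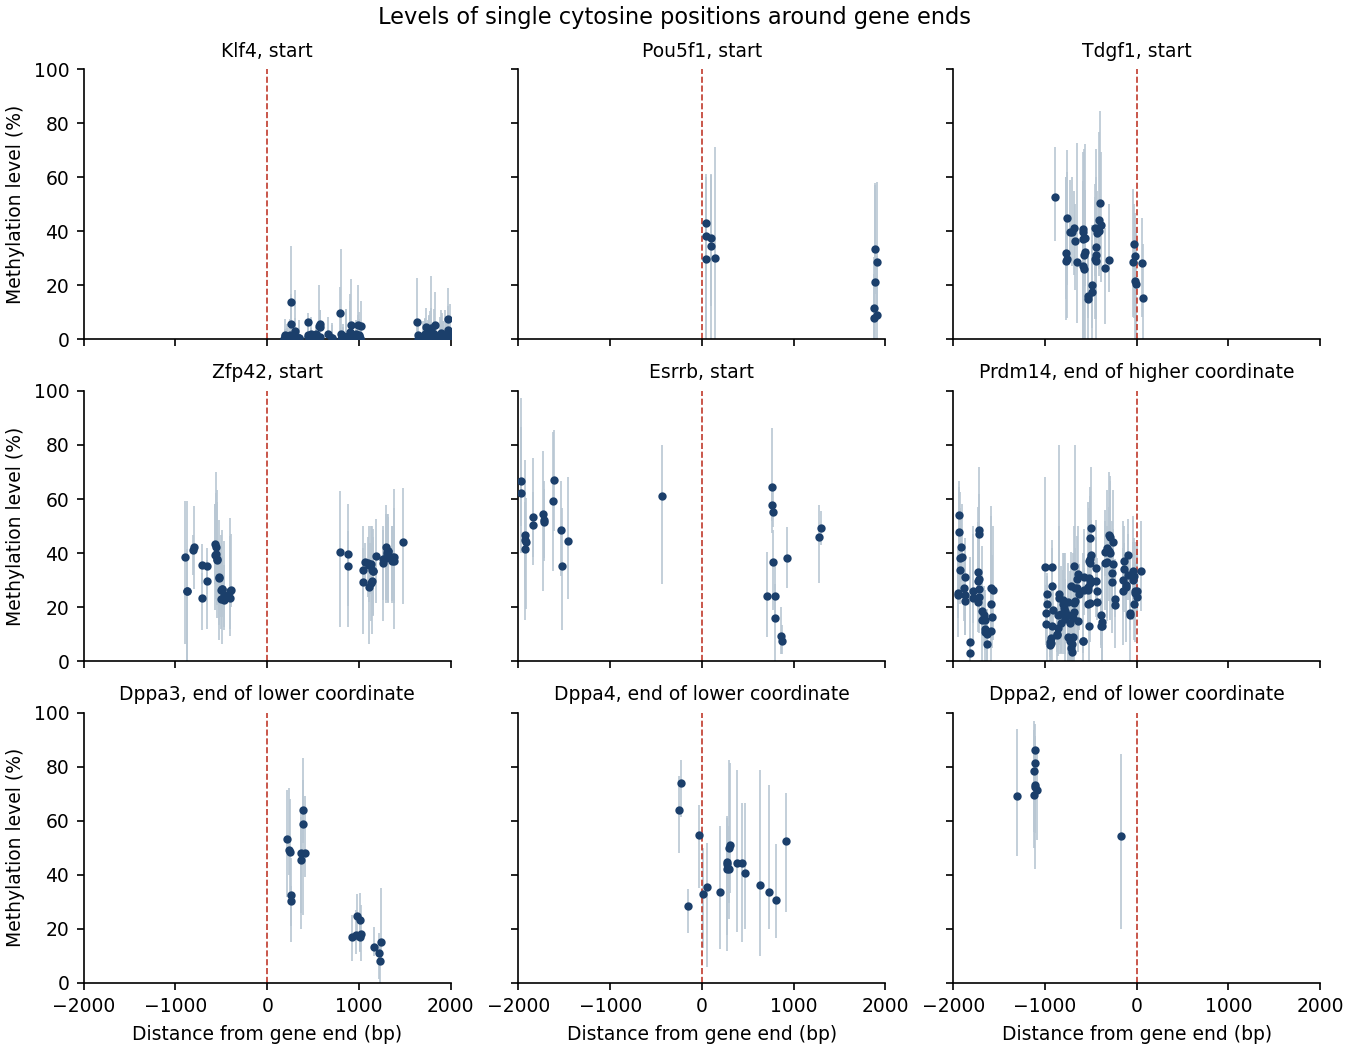
Each panel plots the level of single positions (percent) against the distance from a gene end in bp for one pluripotency gene, in the direction of transcription where the strand was known and along the chromosome otherwise; points are levels over the 10 columns and vertical lines run from the lowest to the highest column. Klf4 stays near 0 from its first measured position, 180 bp inside the gene, whereas the start windows of Pou5f1, Zfp42 and Tdgf1 and the measured end of Prdm14 hold intermediate points.

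Esrrb, an orphan nuclear receptor of the naive network, is by far the longest of these genes, at 160512 bp on chr12:86361117-86521628 (plus strand), and held 400 of the 956 positions. The outer start window had 43.1% over 29 positions (interval 42.4 to 43.9%; columns 39.3, 42.9 and 47.2%), and the far end had 71.7% over 25 positions (columns 64.2, 72.6 and 76.7%). The lncRNA gene Gm40483 overlaps the outer start. RefSeq lists another start of Esrrb 60527 bp further in, at chr12:86421644. The 2000 bp to each side of that inner start had 14.4% over 95 positions and 56179 calls (interval 14.1 to 14.6%; columns 11.8, 14.2 and 17.4%), against 43.1% at the outer start. The inner start was lower in 10 of 10 columns, without overlap. Over 332 inner starts more than 5000 bp from the outermost start of their gene, 42.5% were lower than the outermost and 28.9% were lower without overlap; among the 115 whose outermost start reached 20%, 61.7% had a lower inner start without overlap.

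Around the inner start of Esrrb, 17 positions 60713 to 60971 bp from the outer start had 5.11%, and the 79 positions of the run from 61444 to 62720 bp had 16.7%. In the sequence printed above, the CpG 153 bases before the inner start had 4.79% and the CpG 150 bases before it had 23.0%. The rest of the Esrrb body had 52.7% over 251 positions, with columns of 51.4 to 55.5%, and the whole body had 40.9% over 346 positions, with columns of 38.6 to 43.0%. Measured regions are runs of positions at most 100 bp apart; of the 42 in Esrrb with at least 3 positions, 6 were under 20% and 2 were above 80%. Of those 6, 4 lay from 60197 to 62720 bp, around the inner start; the others were at 41879 to 42002 bp, with 6.75% over 6 positions, and at 34373 to 34466 bp, with 12% over 3 positions. The 2 highest were at 29391 to 29408 bp, with 82.3%, and at 46106 to 46120 bp, with 81.5%, over 5 positions each.

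**Figure D3:**
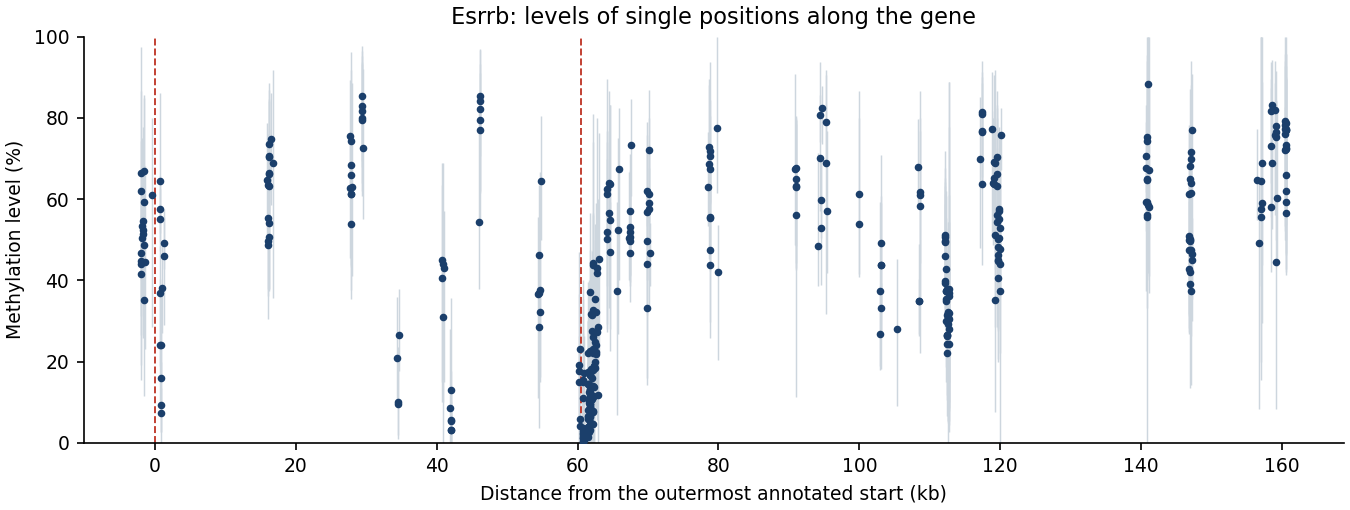
The level of each measured position of Esrrb (percent) is plotted against the distance from its outer start in kb; points are levels over the 10 columns, vertical lines run from the lowest to the highest column, and dashed lines mark the outer and the inner start. Points are low around the inner start 60527 bp in, where the window had 14.4%, against 52.7% over the rest of the body.

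Prdm14, a PR-domain regulator that represses the fibroblast growth factor response and de novo methylation in naive cells and acts in germ cell specification, lies on chr1:13113428-13127163. The direction of Prdm14, Dppa2, Dppa3 and Dppa4 was not used here, and their ends are called lower and higher by coordinate. Only the higher end of Prdm14 was measured: 23.9% over 146 positions and 87260 calls (interval 23.6 to 24.2%; columns 20.2, 24.3 and 26.9%). It was densely measured and not uniform, with single positions of 2.83 to 54.1% in the run from 11692 to 12172 bp along the gene and 109 positions averaging 23.6% from 12735 to 13781 bp. The body had 55.9% over 32 positions (columns 47.0, 56.1 and 60.7%), above the end in 10 of 10 columns without overlap. With end windows of 500 bp, which hand part of the low stretch to the body, the end was 1.09 points above the body.

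Zfp42 (Rex1), a zinc-finger marker of naive cells, lies on chr8:43295067-43307009 on the minus strand. Its start window had 33.8% over 55 positions (interval 33.2 to 34.5%; columns 29.4, 34.9 and 36.9%), and its far end had 75.1% over 27 positions (columns 62.3, 75.3 and 81.0%). The start was lower in 10 of 10 columns, without overlap. Both sides of the start were intermediate: 26 positions 399 to 901 bp before it had 31.7%, and 26 positions 1048 to 1476 bp after it had 36.8%. At the far end, 19 positions had 69.1% and the last 8 had 86.0%, the highest run of at least 3 positions in these genes. None of the 9 CpGs in the 250 bases before the Zfp42 start was measured.

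Dppa3 (Stella), a maternal and germ cell protein that protects methylation in the zygote, had a dip inside the gene. It lies on chr6:122626424-122630271 and is 3848 bp long, so that its end windows meet. The lower end had 25.8% over 20 positions (columns 19.5, 25.9 and 34.5%) and the higher end 45.6% over 14 positions (columns 41.6, 46.3 and 52.6%), with no overlap. Counted from the lower end, levels were 42.3% at 212 to 257 bp, 52.9% at 372 to 410 bp, 19.6% at 926 to 1023 bp, 11.2% at 1165 to 1245 bp and 45.6% at 2290 to 2476 bp. The lowest run, with 4 positions, was thus bounded by higher runs on both sides.

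Dppa2 and Dppa4, paired nuclear proteins that act at bivalent gene starts, neighbour each other on chromosome 16. The lower end of Dppa2 (chr16:48310274-48319513) had 72.6% over 9 positions (interval 70.6 to 74.5%, and columns of 56.5, 74.1 and 81.2%). Its higher end had no measured position. With both ends of a gene pooled, this was the highest end level of the 9 genes, but the far end of Zfp42 alone had 75.1%. The body of Dppa2 had 54.9% over 4 positions (columns 41.1, 59.1 and 68.2%), below the end in 9 of 10 columns with overlapping ranges. The lower end of Dppa4 (chr16:48283735-48294292) had 48.7% over 20 positions (columns 42.6, 47.7 and 53.6%). Its body had 80% over 3 positions (columns 59.1, 84.0 and 95.5%), higher in 10 of 10 columns, but on 3 positions. Taking as end only the bases outside the gene, and as body the whole gene, put the end 10.6 points above the body.

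Tdgf1 (Cripto), the co-receptor of the Nodal signal that patterns the gastrulating embryo, lies on chr9:110939608-110946158 on the minus strand. All 41 measured positions lay in its start window, which had 31.5% (interval 30.7 to 32.4%). The columns ranged more than the others' starts, with 27.4, 29.4 and 41.5% as lowest, median and highest. In the sequence printed above, the 5 of 7 CpGs nearest the start were measured, with 20.7, 30.8, 21.8, 35.5 and 28.8% at 5, 13, 23, 32 and 42 bases before the start. The 7 positions from 41 bp before to 75 bp after the start had 25.9%, and the 33 positions from 774 to 298 bp before it had 32.4%. Levels at the start itself were thus intermediate as well.

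**Figure D4:**
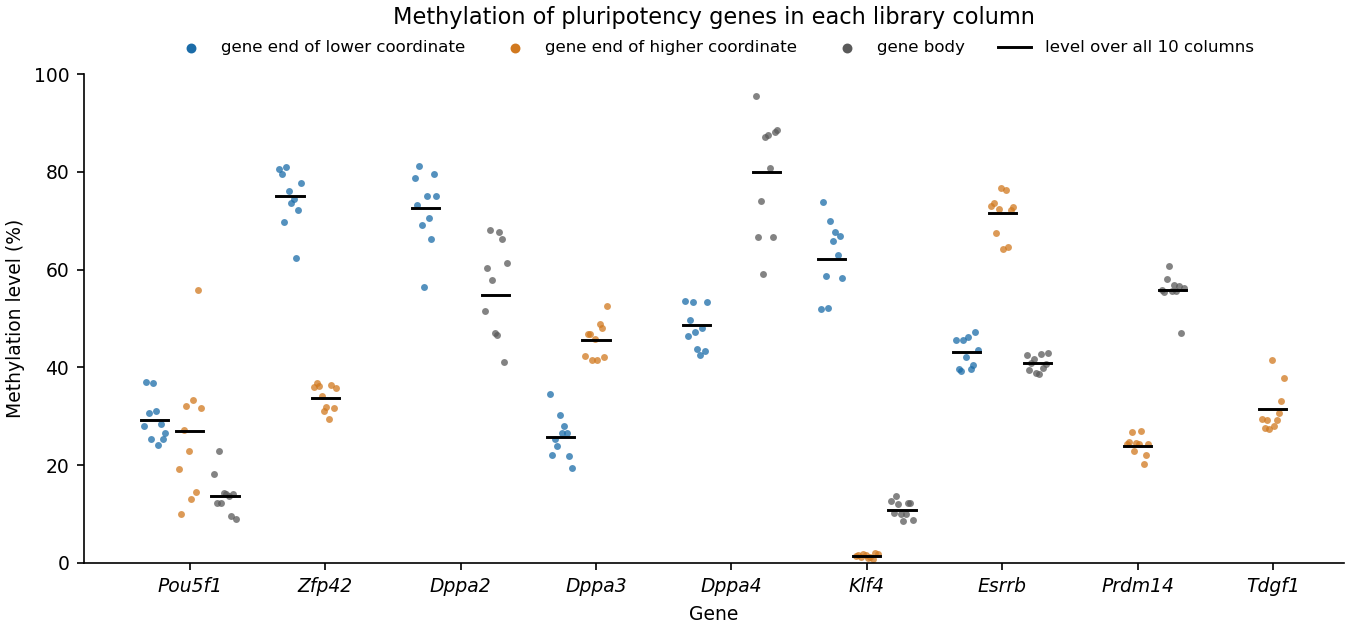
Levels (percent) of every measured window of the 9 genes are plotted for each of the 10 columns, grouped by lower end, higher end and body as ordered by coordinate; each point is 1 column and the short line is the level over all 10. The columns of Klf4 cluster near 0 at its higher end, those of Pou5f1 at its higher end spread from 10 to 55.8%, and 1 column of the Prdm14 body lies below the others at 47.0%.

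Set side by side, the start was lower than the far end in 3 of the 4 genes with both measured, and these 3, Klf4, Zfp42 and Esrrb, did not overlap; 85.0% of 5224 genes had a lower start and 75.2% had one without overlap. In Pou5f1 the start had 29.3% and the far end 26.9%, and the columns overlapped. Ends were lower than the body in 3 of 6 genes, Klf4, Prdm14 and Dppa4, each without overlap, whereas 86.1% of 10860 genes had lower ends and 77.6% had them without overlap. Ends were higher than the body in the other 3, Pou5f1, Dppa2 and Esrrb, as in 13.9% of genes. For Esrrb this depended on the inner start being counted as body. Its ends had 51.9% and its whole body 40.9%, but the body outside the inner start window had 52.7%. For Pou5f1, the whole body window, chr17:35508033-35508776, lay less than 2000 bp before its inner start at chr17:35508807. The range over the 10 columns was 7.48 points at the start of Zfp42, 7.92 points for Esrrb, 12.8 points for Pou5f1 and 14.1 points for Tdgf1; among all genes with starts at 20 to 80%, the range from the 10th to the 90th percentile was 8.59 to 26.6 points. The order of start levels was Klf4, Pou5f1, Tdgf1, Zfp42 and Esrrb from low to high. The ranges of Pou5f1, Tdgf1 and Zfp42 overlapped, and that of Tdgf1, up to 41.5%, also overlapped that of Esrrb, from 39.3%. The range of Klf4 lay apart from the others.

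The local density of measured positions went with lower methylation over all gene ends, but not in each pluripotency gene. End positions with at most 5 measured positions within 100 bp, itself counted, averaged 47.7% over 77 positions in the pluripotency genes and 42.7% in all gene ends. With 6 to 15 they averaged 38.7% over 234 positions in the pluripotency genes and 21% in all gene ends. With more than 15 they averaged 13.4% over 222 positions in the pluripotency genes (columns 11.6 to 15.5%) and 4.33% in all gene ends. Klf4 held 99 of the 222 dense positions, at 1.24%; without it, the 3 classes had 46.5% (columns 41.6 to 51.1%), 43.0% (columns 40.8 to 45.2%) and 23.3%, the last over 123 positions of 3 genes, of which 111 belonged to Prdm14, with 22.8%. The dense class of the other genes is thus largely a single end of Prdm14. Between the sparse and the middle class, the middle one was higher in Dppa2, with 76.0% against 61.8%, and in Zfp42, with 49.9% against 40.8%. It was also slightly higher in Tdgf1, with 34.3% against 32.6%, and in Dppa4, with 44.0% against 43.9%. The middle class was lower in Pou5f1, Dppa3, Klf4 and Esrrb. The sparse class of Dppa2 had only 2 positions, and the middle class of Zfp42 also holds far-end positions, where the window had 75.1%.

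**Figure D5:**
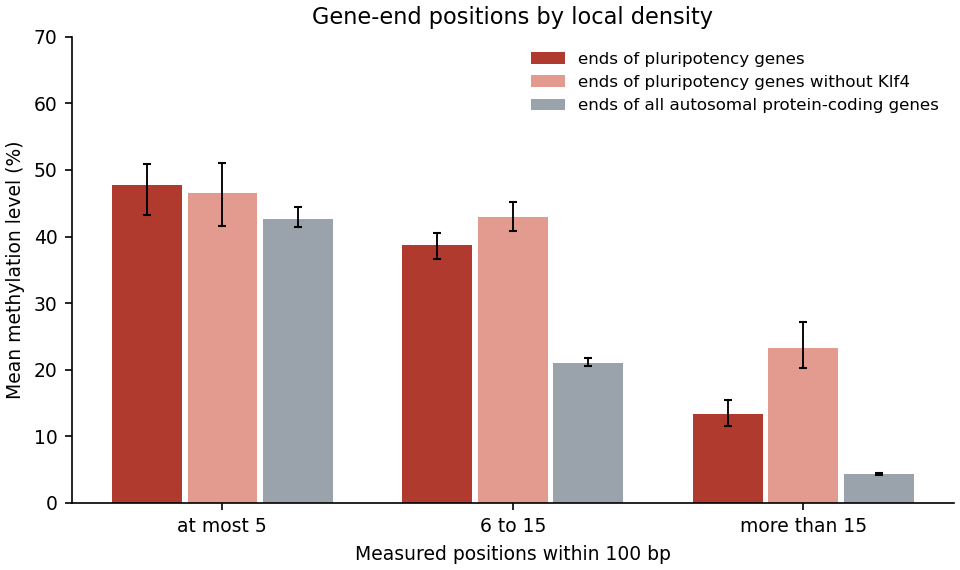
Mean levels (percent) of end positions are plotted by the number of measured positions within 100 bp, itself counted, for the pluripotency genes, the same genes without Klf4, and all autosomal protein-coding genes; whiskers run from the lowest to the highest column. Above 15 positions the means are 13.4% in the pluripotency genes, 23.3% without Klf4 and 4.33% in all genes.

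Lists of further genes are read against all genes, of which 60.0% were under 20% at the ends and 75.9% at the start. The naive list of 22 further genes, with 20 measured, had a median end level of 11.1%, close to the 13.1% of all genes, with 13 under 20%, 6 at 20 to 80% and 1 above 80%. At the start 11 of 12 were under 20%, with a median of 2.51%: Zfp281 had 0.791%, Utf1 1.21% and Stat3 1.26%, while Fgf4 had 7.49%, Gbx2 7.68% and Tcl1, a cofactor of Akt kinase, 56.0%. The primed epiblast list had a median of 10.5% at the ends, with 13 of 17 under 20%, and 8 of 9 starts under 20%; the de novo methyltransferase Dnmt3b had 1.83%, Lin28b 2.42% and Nodal 6.43%, while Fgf5 had 13.7%, Otx2 19.0% and Sall2 33.7%. In windows of 500 bp the median end level was 33.3% over the 8 pluripotency genes still measured, 2.02% for the naive list, 1.31% for the primed list and 2.32% over all genes, so the medians of both lists and of all genes were lower together. The median start level in these windows was 28.1% for the pluripotency genes, without Esrrb, which had too few positions, and 1.36% over all genes. The germ cell list, which holds Prdm14 and Dppa3 as well, had a median of 34.2% at the ends, with 4 of 12 under 20%, 7 at 20 to 80% and 1 above. Its starts were under 20% in 2 of 6: the receptor gene Kit had 2.25% and Prdm1 18.1%, while the meiosis and germ line genes Ddx4, Dazl, Mael and Sycp3 had 32.9, 37.8, 44.2 and 52.8%. The embryos could also hold trophoblast and visceral endoderm, and genes marking these had median end levels of 11.6% (7 of 9 under 20%) and 47.8% (2 of 7 under 20%). Of the measured starts, 4 of 5 trophoblast ones were under 20%, with a median of 3.95%, and 2 of 2 visceral endoderm ones were at 20 to 80%. Elf5, a trophoblast factor, had the highest end level of the 9 trophoblast genes. It had 75.4% over 6 positions at its far end, and its start had no measured position. The part of these tissues in the members' levels was not tested.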

How the data were processed

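The deposited table holds raw counts, for each cytosine position and column the covering reads, the methylated calls and the unmethylated calls, per the file headers. Trim Galore, Bismark, methylKit and mm10 are named, without roles, per the submitters' processing notes. Their versions are not given in the sources used. All positions in the table were covered in every column, so only shared positions are described. Of 2137826 rows, 2 repeated a position and were left out. Levels are summed methylated calls over summed coverage, in windows of 2000 bp around gene ends, with at least 3 positions. Positions near both ends went to the nearer end. Gene positions and start sides came from RefSeq tables of GRCm38.p6; the side was found for 6 of 10 genes, and exons and introns were not used here. Of 140835 measured positions inside the RefSeq promoter sequences, 140831 lay in a CpG. As 0 of 10 columns could be tied to a sample, the planned logistic model of arsenic against control was not run. The members and lists were chosen with earlier results of these data known. Of the lists, the 3 highest and the 3 lowest start levels are named. Alternatives covered coverage, windows, positions, weighting and each column left out. Python 3.11.15, numpy 2.4.6, pandas 2.3.3, scipy 1.17.1 and matplotlib 3.10.9 were used.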

Additional observations from a re-analysis of the deposited data

Results flagged for a closer look

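Of 20 windows whose 10 columns were screened for a value apart from the rest, 2 were marked because the gap to the nearest other column took up more of the range than Dixon's limit allows; chance marks about 1 in 20. The far end of Pou5f1 had 55.8% in column 9, with the next column at 33.3%, on 5 positions and 95 calls. The body of Prdm14 had 47.0% in column 9, with the next lowest at 55.5%, on 32 positions and 1651 calls. Both fell in column 9, on opposite sides of the other columns. The columns hold arsenic and control samples in an unknown assignment, and the cause was not tested.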

How the results depend on the processing

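Medians, counts and density-class means of members and lists that moved by at least 1 SD of the column values are given by setting. Another 60 values, of single genes or of all genes, also moved, and most are not listed. In windows of 500 bp, not 2000 bp, the Zfp42 start had 25.1% against 33.8% and Dppa3 ends 47.9% against 35.5%. There Esrrb ends had 70.1% against 51.9% and the Prdm14 body 29.6% against 55.9%. Dppa4's end minus body was -0.293 against -31.3 points. The cause was not tested. With at least 20 reads in each column, the median end level was 32.2% over the 7 genes left (without Pou5f1 and Dppa2) and the body 27.3%; naive ends had 14.7%, primed starts 13.1% and germ cell ends 28.1%. In windows of 1000 bp the members' body had 41.1%, naive ends 5.75% and starts 1.24%, primed ends 3.09% and starts 2.22%, and germ cell ends 28.5%. In windows of 500 bp the members' starts had 28.1% without Esrrb and body 37.3%, naive ends 2.02% and starts 1.12%, primed ends 1.31% and starts 1.29%, and Prdm14's end minus body reversed to 1.09 points. With ends outside the gene only, members had 43.8% at ends over 6 genes and 38.5% in the body, 0 genes under 20% (Klf4 had no position there), naive starts 5.74%, primed starts 19.8%, germ cell ends 43.7% and starts 41.7%, and Dppa4's end minus body reversed to 10.6 points. Requiring 5 or 10 positions gave a body median of 27.3% each; 10 positions gave primed starts 10.7% and germ cell ends 28.4%. Regions numbered 200 at gaps up to 50 bp and 70 at gaps up to 200 bp, against 111. Without Klf4, chosen after seeing the data, end positions with 6 to 15 measured positions within 100 bp had 43.0% and those with more than 15 had 23.3%. Leaving out each column moved no window level or list median by 1 SD. With 10 columns, leaving out 1 can hardly move a pooled level that far, so this says little about single columns. The far end of Pou5f1 had 23.7% without column 9, against 26.9%. No paired analysis was possible because the labels repeat replicate numbers 1 to 5 in both groups and the columns cannot be tied to samples. Depth limits windows of few positions most, such as the Dppa4 body with 479 calls.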
